A study of Mus musculus with 12 samples.

Results

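The cells described here are the CD11b+/CD11c+ cells that were sorted from the kidneys of op/op mice, 3 of the 12 samples of the series. They were compared with macrophages grown from bone marrow, 3 M1 samples and 3 M2 samples, with each culture given the same weight in the mean of the marrow side. The members were chosen by their sample labels, not by a measured value. The op/op mice were homozygotes of the stock B6C3Fe a/a-Csf1op/J, received glyoxylate (GOX) at 80 mg/kg for 6 days, and their kidney cells were taken by magnetic sorting (autoMACS). Kidney cells of wild-type (WT) mice of that stock, with the same treatment and sort, gave 3 further samples. M1 macrophages had been stimulated with LPS and GM-CSF, and M2 macrophages with IL-4 and M-CSF. The labels assign this stock to all samples but do not give the genotype of the marrow donors, the length of culture, the age or sex of the mice, or whether kidneys were pooled. They are also silent on whether replicates came from different animals or culture dishes, and a p-value here may thus reflect technical spread only.

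The op allele is a loss-of-function mutation of Csf1, the gene for M-CSF, the growth factor on which most tissue macrophages depend through their receptor CSF1R. It is a germline mutation, so every cell of these mice carries it, and osteoclasts and many macrophage populations are reduced in op/op animals. CD11b, encoded by Itgam, is carried by macrophages, monocytes, neutrophils and NK cells, and CD11c, encoded by Itgax, by dendritic cells and by many kidney phagocytes. Glyoxylate is turned into oxalate in the body, and in mice it leads to calcium oxalate crystals in the renal tubules.

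Each RNA was read on a one-colour mouse array with 55681 probes. The level of a gene is given as the log2 processed signal of its brightest probe minus the 75th percentile of that array, so a level of 0 marks a bright probe and a difference of 1 is a doubling. Levels of different probes are not comparable with each other. Between 63.1% and 68.7% of probes were well above background on the op/op arrays, against 72.6% to 75.1% on the M1 and 64.3% to 65.0% on the M2 arrays. No spot was saturated. The log2 signal at the 75th percentile, before scaling, was 7.98 to 8.21 on the op/op arrays and 8.96 to 9.05 on the marrow arrays. All op/op arrays lay on a slide shared with WT replicates 2 and 4, and all marrow arrays lay on another slide, so slide and tissue cannot be told apart. The op/op arrays correlated with each other at 0.972 to 0.98 and with the marrow arrays at 0.715 to 0.8. The median SD within a group was 0.256 for op/op, 0.157 for M1 and 0.129 for M2. The labels call the op/op samples renal macrophages. Genes that define macrophages were detected in them at levels far below the marrow cultures, beside high levels of tubule and endothelial genes, so the samples are called the op/op kidney fraction here.

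The op/op kidney fraction differed from marrow macrophages in most genes. Of 27260 genes tested, 84.2% were called at an adjusted p below 0.05, 47.4% as higher and 36.7% as lower in the op/op cells, and the median difference over all genes was 0.36. Among the 20555 genes well above background on all 9 arrays compared, 47.9% were higher and 37.8% lower. The op/op cells were above both cultures in 44% of the 25610 genes tested against each of them, below both in 32.3%, and between them, with both differences called, in 1.19%. A count of called members of a gene list is read below against these shares.

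Olfactory receptor genes, which have no known role in kidney or marrow myeloid cells, show how far dim probes moved. Of 460 tested, 395 were higher and 7 lower in the op/op fraction. Of the 213 that were well above background on all 9 arrays, 185 were higher and 1 lower, with a median difference of 1.79 and 10th and 90th percentiles of 0.39 and 2.62. Before scaling, their median log2 signal was 6.47 to 6.74 on the op/op arrays and 5.51 to 5.94 on the marrow arrays, while the median over all genes was 7.42 to 7.63 and 8.19 to 8.32. Dim genes as a whole moved the same way. Over the 5452 genes with the lowest mean level the median difference was 0.80, and over the 5452 with the highest it was -0.51. A rise below 2.62 in a dim gene therefore lies within the range of these receptors, whose part in any single rise was not tested. Where the lower group lacked a measured level on some or all of its arrays, the difference is bounded by setting that group at a floor of -2.44, and is taken as 0 where no bound can be had. With such genes at their bound, 888 of all genes tested, or 3.3%, lay above 2.62, and the median of the 460 receptors was 1.12. List medians below are given from the measured signals and, where this changes them much, at the bounds.

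**Figure D1:**
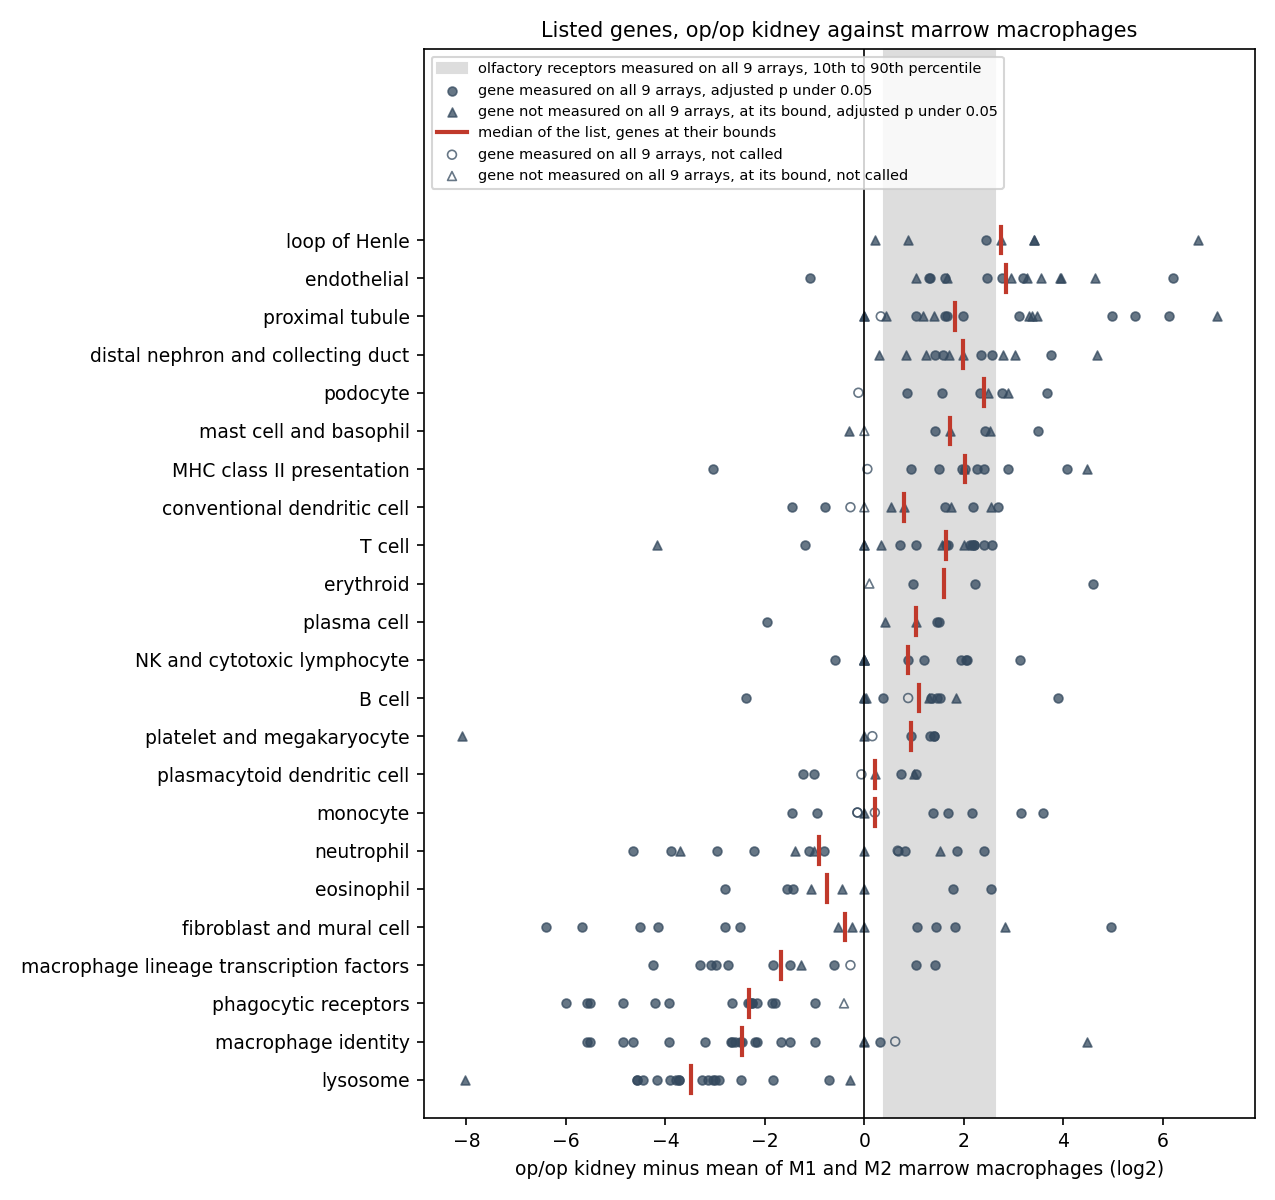
Difference between the op/op kidney fraction and the mean of M1 and M2 marrow macrophages (log2, horizontal axis) for the tested genes of 23 lists (rows). Circles are genes measured on all 9 arrays, triangles are other genes at their bound, filled where the adjusted p was below 0.05, red bars are list medians with genes at their bounds, and the grey band spans the 10th to 90th percentile of the 213 olfactory receptors measured on all 9 arrays (0.39 to 2.62). The median of lysosome genes is -3.49, and those of endothelial and loop of Henle genes are 2.85 and 2.74.

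Genes that define macrophages were low in the op/op fraction. Of 21 macrophage identity genes tested, 17 were lower and 2 higher, with a median difference of -2.46; of the 18 that were well above background on all 9 arrays, 16 were lower and 1 higher. Adgre1, which encodes the macrophage surface protein F4/80, had levels of 0.07, 0.11 and 0.47 on the op/op arrays, 5.67 to 5.75 on the M1 and 4.43 to 4.46 on the M2 arrays. The groups did not overlap, and Adgre1 was 29.1-fold lower in op/op cells (difference -4.86, SE 0.31, adjusted p = 1.13e-07). Lyz2, the myeloid lysozyme, stood at -0.69, -0.50 and -1.05 in op/op cells and at 3.70 to 4.28 on all marrow arrays (difference -4.66, SE 0.40, adjusted p = 7.18e-07). Cd68, a glycoprotein of phagocyte lysosomes, was at 3.15 to 3.27 against 5.88 to 6.86, a 9.28-fold difference. In these 3 genes the op/op arrays lay close together and far below each marrow array. Kidney cell lists were higher on the same arrays, with medians at the bounds of 1.83 for the proximal tubule and 2.85 for endothelium, and their part in the fall was not tested. Fewer cells of a type and less RNA per cell cannot be told apart in these bulk samples.

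The distance from marrow cells depended on the culture for several members. Marco, a scavenger receptor, differed by -8.98 from M1 and by -2.05 from M2. Fcgr1, the high-affinity IgG receptor, fell by 5.10 against M1, whereas its difference from M2 was -0.24. Mrc1, the mannose receptor, showed the opposite order, with -5.67 against M2 and 0.75 against M1. Msr1 and Trem2, receptors for modified lipoproteins and for lipids, were lower than both cultures, with mean differences of -5.58 and -3.92. The complement genes C1qa, C1qb and C1qc, made in quantity by resident macrophages, were closer to marrow, at -2.19, -1.68 and -2.50. C1qb had levels of 2.83 to 3.18 in op/op cells and 4.35 to 5.19 in the cultures.

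Cx3cr1, the fractalkine receptor of monocytes, resident macrophages and many kidney phagocytes, was the exception in size and direction. Its levels were 2.06, 1.93 and 2.09 on the op/op arrays, -4.47, -3.60 and -3.73 on the M1 arrays and -4.62, -4.07 and -5.11 on the M2 arrays. The probe was well above background on 2 of the M1 arrays and on no M2 array, and it was at least 22.1-fold higher in op/op cells than in M2 cells. WT kidney cells had more Cx3cr1, at 4.27 to 5.25 (difference -2.61, SE 0.33, adjusted p = 0.000496).

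**Figure D2:**
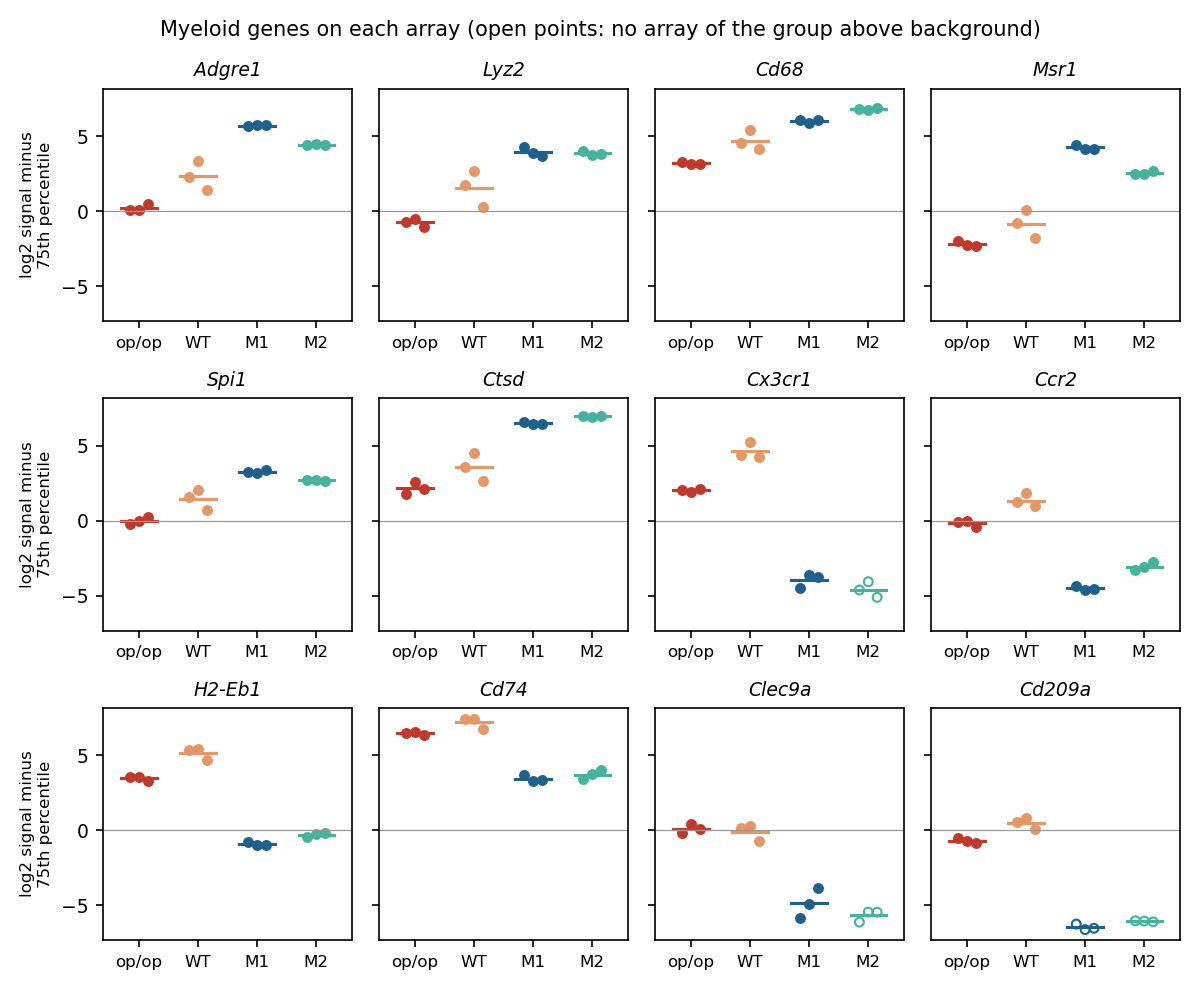
Levels of 12 myeloid genes (log2 signal minus the array's 75th percentile, vertical axis) on each array, as points, with group means as lines, for op/op kidney, WT kidney, M1 and M2; open points mark groups with no array well above background. Adgre1, Lyz2, Cd68, Msr1, Spi1 and Ctsd lie below both cultures in op/op cells, while Cx3cr1, Ccr2, H2-Eb1, Cd74, Clec9a and Cd209a lie above them.

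The antigens used for the sort did not move together. For Itgam the brightest probe was at 8.21, 8.08 and 7.80 in op/op cells and at 6.97 to 7.38 in marrow cells (difference 0.91, SE 0.18, adjusted p = 0.000558). Its other 2 probes differed by -1.56 and -1.34, and under quantile normalization the difference of the brightest was 0.08 and was not called, so the data give no settled direction for Itgam. Itgax lay between the cultures, at 0.05, 0.15 and 0.25 in op/op cells, -1.22 to -0.97 in M1 and 2.99 to 3.1 in M2. Its difference was 1.26 from M1 and -2.89 from M2. Itgb2, the beta chain that both antigens share, was lower in op/op cells at 3.74 to 3.92 against 6.18 to 6.68 (difference -2.62, SE 0.24).

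Of 12 colony-stimulating factor ligands and receptors, 4 were higher and 4 lower, with a median of 0.05. Csf1 itself was detected in op/op cells at -0.98, -0.06 and -0.54, far below the marrow cultures at 3.15 to 3.49 (difference -3.82, SE 0.18, adjusted p = 3.12e-08), and the other 2 probes of the gene gave -2.66 and -3.11. The array measures Csf1 transcript and not functional M-CSF. The level of WT kidney cells, -0.18 to 0.00, did not differ from that of op/op cells beyond the threshold (difference -0.42, SE 0.21, adjusted p = 0.106). Il34, the other ligand of CSF1R, was near the marrow level, with a difference of -0.05 (adjusted p = 0.858), and was lower than in WT kidney (difference -1.35, adjusted p = 0.00428).

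For the receptor gene Csf1r the probes disagreed. The brightest had levels of 4.92 to 5.07 in op/op cells and 4.46 to 4.82 in marrow cells, a difference of 0.31 (SE 0.13, adjusted p = 0.0374), whereas the other 2 gave -2.95 and -2.19. On the mean of its probes the difference was -1.61. The GM-CSF receptor chains were unequal: Csf2ra differed by 0.16 (adjusted p = 0.264), while Csf2rb and the related Csf2rb2 were lower by differences of -1.70 and -3.99. Flt3 and Flt3l, receptor and ligand of the pathway that sustains dendritic cells, were higher by 2.19 and 2.78. The Flt3 rise lies within the olfactory receptor range. Other probes of Flt3 differed by 1.02 and by 3.22, the latter on a probe above background on no marrow array. The other probe of Flt3l differed by 0.16.

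Transcription factors of the macrophage lineage followed the identity genes, with 9 of 12 lower and 2 higher (median -1.76, -1.67 at the bounds). Spi1, the gene of PU.1, was at -0.19, -0.03 and 0.25 in op/op cells against 2.63 to 3.36 in marrow cells, a 7.87-fold difference. Tfec, a factor of the MITF family found in macrophages, was 19.1-fold lower, at -1.93 to -1.26 against 2.09 to 3.06. Maf and Nr1h3, the gene of the sterol sensor LXR alpha, differed by -3.30 and -3.08. Klf4, which monocytes express, was higher than M1 by 2.66, and its difference from M2 was 0.19.

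Phagocytic receptors and lysosomal genes were lower in nearly every member measured. Of 16 phagocytic receptors, 15 were lower and none higher, with a median of -2.32. Cd36, a receptor for oxidised lipids and apoptotic cells, was at -1.78, -1.51 and -1.70 in op/op cells and at 3.13 to 3.50 in M1 and 5.30 to 5.42 in M2, a 64.0-fold difference. Fcgr3 and Fcgr2b, low-affinity IgG receptors, differed by -4.85 and -4.21. All 18 lysosomal genes tested were lower, 16 of them well above background on all 9 arrays, with a median of -3.49 against 0.36 over all genes. Ctsd, the aspartic protease cathepsin D, was at 1.76, 2.56 and 2.14 in op/op cells and at 6.45 to 7.0 in marrow cells (difference -4.58, SE 0.32). Ctsb and Ctsl, cysteine proteases, differed by -3.79 and -3.73, and Lamp1, a lysosomal membrane protein, by -2.92. Gpnmb, a glycoprotein of lipid-laden macrophages, was above background on none of the op/op arrays and was at least 191-fold lower than in M1 and at least 360-fold lower than in M2. Against WT kidney, where 59.4% of all genes tested were called, 28.5% as lower and 30.9% as higher in op/op cells, 15 of 16 lysosomal genes were lower. The count of all genes called against WT was 16077 and fell to 9397 when only the arrays of these groups entered the fit, so counts against WT depend on the pooled spread. WT kidney cells themselves differed from the marrow mean in 65.8% of genes, 37.2% higher and 28.7% lower.

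Lysosomal genes are a known target of TFEB and its relatives, which bind CACGTG in their promoters, so the promoters of the listed genes were searched for these letters on both strands. The sequences are RefSeq's (GRCm38.p6) and run from 250 bases before to 50 after the start of the gene. Of the 18 genes, 14 had an entry and 3 held the motif (Lamp1, Ctsd and Ctsl), against 8.09% of 27025 genes. All 18 listed genes were lower, so the fall does not set these 3 apart. Their windows are shown with the matches in capitals. The Lamp1 window (chr8:13159070-13159160, plus strand) has 4 matches 61 to 15 bases before the start, that of Ctsd (chr7:142387890-142388077, minus strand) 2, and that of Ctsl (chr13:64370721-64370770, minus strand) 1. A match describes these letters only and was not tested as a binding site. A like search of the macrophage identity genes for GAGGAAGT found it in 1 of 13 genes with an entry (C1qc), against 3.69% of 27025 genes.
Lamp1 promoter: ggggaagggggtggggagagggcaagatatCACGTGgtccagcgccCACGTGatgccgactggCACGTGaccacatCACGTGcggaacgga
Ctsd promoter: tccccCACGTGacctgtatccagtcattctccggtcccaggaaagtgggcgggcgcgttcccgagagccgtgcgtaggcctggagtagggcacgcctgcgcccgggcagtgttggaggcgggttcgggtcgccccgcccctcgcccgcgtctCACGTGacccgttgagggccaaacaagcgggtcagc
Ctsl promoter: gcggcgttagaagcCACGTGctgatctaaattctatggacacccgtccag

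Antigen presentation genes moved against the macrophage genes. Of 12 MHC class II presentation genes, 10 were higher and 1 lower (median 2.15), and of the 10 measured on all 9 arrays 8 were higher. The median lies within the olfactory receptor range. At their bounds, 3 of the 12 genes (H2-Ea, H2-Eb1 and Cd74) exceeded 2.62, against 3.3% of all genes tested. H2-Eb1, a beta chain, was at 3.56, 3.54 and 3.28 in op/op cells and at -1.0 to -0.17 in marrow cells, a 16.8-fold difference. Cd74, the invariant chain, was at 6.34 to 6.58 against 3.29 to 4.0. H2-Ab1 and H2-Aa were higher by 2.03 and 1.96. These rises are below 2.62, but both genes are bright, with op/op means of 5.01 and 3.64, and most of the receptors are dim. The member that was lower was Ctss, the protease that trims the invariant chain, at 3.73 to 4.04 against 6.83 to 6.97 (difference -3.04, SE 0.24). Against WT kidney cells 7 of the 12 genes were lower and 1 higher.

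The 1 member higher than in WT was H2-Ea, an alpha chain that some mouse strains carry in silent form. It was at 1.78, 2.06 and 2.26 on the op/op arrays and not well above background on any marrow array, at least 22.2-fold higher. Of the WT arrays, replicate 4 was at 1.76, just below the lowest op/op array, while replicates 1 and 2 were at -6.13 and -6.65. The labels give all samples the same stock, and its MHC haplotype in each sample was not tested.

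Dendritic cell genes were split once dim probes were set aside. Of 11 conventional dendritic cell genes tested of 12 listed, 7 were higher and 2 lower (median 2.06, 0.79 at the bounds), but only 6 were well above background on all 9 arrays, and of these 3 were higher and 2 lower, with a median of 0.67. Clec9a, a receptor of cross-presenting dendritic cells, was at -0.16, 0.40 and 0.06 in op/op cells, well above background on 1 M1 array and on no M2 array. It was at least 5.82-fold higher than in M2. Cd209a, a lectin of dendritic cells and some monocytes, was at -0.88 to -0.51 and at least 3.37-fold higher than in either culture. Zbtb46, a transcription factor of conventional dendritic cells, was higher by 1.63, with 1 M2 array at 1.06 above the op/op arrays at 0.19 to 0.42. Its rise lies within the olfactory receptor range. The members that were lower, Batf3 and Fscn1, differed by -1.46 and -0.79, and Irf8 and Irf4 differed by -0.28 and -0.20. Clec9a and Zbtb46 did not differ from WT kidney beyond the threshold (differences 0.21 and 0.68, adjusted p = 0.692 and 0.276). Xcr1 was measured on 2 of 3 op/op arrays and was not tested. At their bounds, 1 of the 11 genes lay above 2.62, Cd24a, a surface glycoprotein of many cell types (difference 2.68). Of 7 plasmacytoid dendritic cell genes 4 were higher and 2 lower (median 0.74, 0.22 at the bounds).

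Monocyte genes had no common direction, with 5 higher and 3 lower of 11 tested (median 0.21). Ccr2, the receptor that brings inflammatory monocytes into tissue, was at -0.07, -0.05 and -0.42 in op/op cells and at -4.63 to -2.76 in marrow cells, a 12.2-fold difference. The listed genes Ace and Cd300e were higher by 2.16 and 1.68, within the olfactory receptor range, while Treml4 differed by -0.14. Which cells gave these signals was not tested. Vcan and S100a4 differed by -0.96 and -1.46, and other probes of Vcan by -0.99 and -5.56. Ccr2 was higher in WT than in op/op kidney cells (difference -1.53, adjusted p = 0.000883), and 7 of the 11 genes were lower in op/op cells than in WT, 2 higher.

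Granulocyte genes were split. Of 16 neutrophil genes, 10 were lower and 5 higher (median -1.23, -0.91 at the bounds). Granule genes of the secondary and tertiary kind were low: Ngp was at -1.31 to -0.25 against 2.37 to 4.17, and Ltf, measured on 2 op/op arrays, Mmp8 and Lcn2 differed by -4.08, -4.66 and -2.96. S100a8 and S100a9, the calprotectin chains, were nearer, at -2.21 and -0.82. Without op/op replicate 1 the S100a9 difference was -0.64 and was not called. Elane, elastase of early granulocytes, was higher by 2.40, within the olfactory receptor range. Retnlg, a neutrophil gene, was at least 7.13-fold higher than in M1, and its difference from M2 was 0.22. Against WT kidney, 5 of 13 neutrophil genes were higher and 1 lower (median 0.27), where 30.9% of all genes tested were higher and 28.5% lower. Olfactory receptors had a median of 0.80 in that comparison. Ngp was among the higher neutrophil genes, at -3.30 to -2.01 in WT cells (difference 1.74, adjusted p = 0.00233).

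Of 7 mast cell and basophil genes tested of 11 listed, 5 were higher and 1 lower (median 2.21, 1.73 at the bounds). Tpsb2, a protease of connective tissue mast cells, was at 3.61 to 4.07 in op/op cells and higher than in marrow cells by 3.49. That is above the olfactory receptor range, but its other probe differed by 2.03, within the range. Mcpt4, another such protease, was at -1.47 to -0.18, higher than in M1 by 3.31 and at least 3.32-fold higher than in M2. Gata2, a factor of mast cells and progenitors, was higher by 2.43. Kit, their growth factor receptor, was higher than in M1 by 1.85, and 1 M2 array measured it. The Gata2 rise and the Kit difference from the marrow mean, 2.21, lie within the olfactory receptor range. Prss34, measured on 1 op/op array, was lower, with a difference of -0.99, and Mcpt8 differed by -0.38. Of the 11 listed genes, 5 were above background on no op/op array. Of 8 eosinophil genes 6 were lower and 2 higher (median -1.50, -0.75 at the bounds).

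Genes of kidney cells that carry neither sorting antigen were among the highest. Of 18 proximal tubule genes tested of 22 listed, 17 were higher and none lower, with a median of 3.74, or 1.83 at the bounds. Of the 9 measured on all 9 arrays 8 were higher, with a median of 1.99. In the loop of Henle list 7 of 7 genes were higher (median 4.53, 2.74 at the bounds), and only 1 was measured on all 9 arrays, at 2.44. Of 13 genes of the distal nephron and the collecting duct, all 13 were higher (2.83, 1.98 at the bounds), and the 5 measured on all 9 arrays had a median of 2.34. Of 8 podocyte genes 7 were higher (2.55, 2.40 at the bounds), and the 6 measured on all 9 arrays had a median of 1.94. These medians over genes measured on all 9 arrays lie within the olfactory receptor range. Many of these genes were tested only because they were measured in op/op cells and had to differ, so these counts are a description. At their bounds, 8 of 18 proximal tubule, 4 of 7 loop of Henle, 4 of 13 distal and 3 of 8 podocyte genes exceeded 2.62, against 3.3% of all genes tested.

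Umod, the uromodulin gene of the thick ascending limb, was at 3.53, 5.55 and 3.69 on the op/op arrays and not well above background on any marrow array, at least 104-fold higher. Slc34a1, the phosphate carrier of the proximal tubule, was at 3.66, 3.58 and 2.86 against -2.93 to -2.49, a 69.6-fold difference. Fxyd2, a regulator of the sodium pump in tubules, had the largest rise of the genes measured on all 9 arrays that the naming rule covers, at 3.97 to 5.38 against -3.36 to -2.58 (difference 7.45, SE 0.31). All tubule segments were represented. Slc12a3, the thiazide-sensitive cotransporter of the distal tubule, was at 1.56, 3.22 and 1.95 in op/op cells and was well above background on 2 M1 arrays and 1 M2 array. Aqp2 and Aqp3, water channels of the collecting duct, were higher than in marrow cells by 1.58 and 3.76. Among podocyte genes, Podxl, encoding the sialoprotein podocalyxin, was at -0.74 to 0.50 in op/op cells and at least 5.60-fold higher than in either culture.

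The op/op arrays were not alike in these genes. Replicate 2 was highest for the loop of Henle list, with a mean level, values under the floor raised to it, of 1.14 against -0.31 and -0.26 in replicates 1 and 4. Slc12a1, the loop's sodium-potassium-chloride cotransporter, was at 2.04 in replicate 2 and at 0.04 and 0.19 in the others, and Kcnj1 and Egf showed the same order. Proximal tubule genes were lowest in replicate 4, at a mean of 0.02 against 0.74 in replicate 1, and highest in replicate 2. On the marrow arrays the mean of the proximal tubule list ran only from -1.90 to -1.74.

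**Figure D3:**
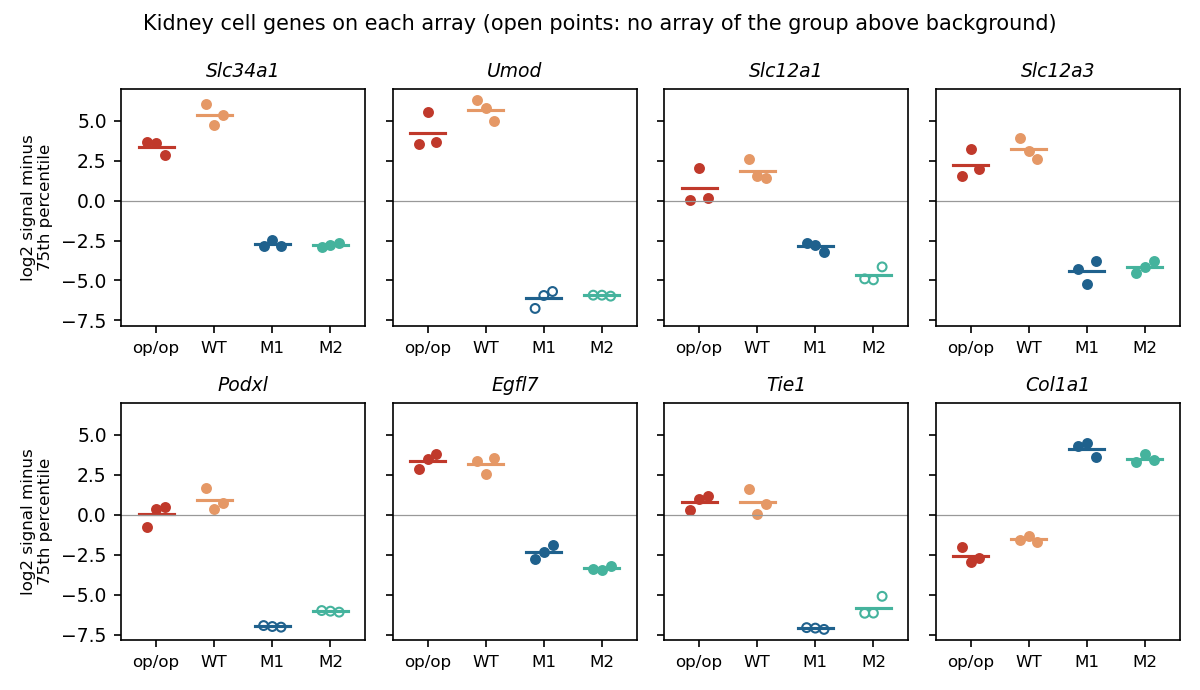
Levels of 8 kidney cell genes (log2 signal minus the array's 75th percentile, vertical axis) on each array, as points, with group means as lines and open points for groups with no array well above background. Tubule, podocyte and endothelial genes lie above both marrow cultures in op/op and WT kidney samples, Umod and Slc12a1 are highest in op/op replicate 2 (5.55 and 2.04), and Col1a1 lies below both cultures.

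Against WT kidney, proximal tubule genes were lower. Of 22 proximal tubule genes, 17 were lower in op/op cells and none higher (median -1.62). Slc34a1, at 4.70 to 6.06 in WT cells, was lower in op/op cells by a difference of -2.01 (adjusted p = 0.000995), and Lrp2, the endocytic receptor megalin, by a difference of -1.85. Of 14 distal genes 6 were higher and none lower (median 0.57), with Aqp2 and Aqp3 higher by 1.05 and 1.24 (adjusted p = 0.00247 and 0.00307). The median and both these rises lie within the range of olfactory receptors, of which 243 of 480 were higher and 3 lower against WT, with a median of 0.80 and a 90th percentile of 1.42. Of 8 loop of Henle genes 2 were lower and none higher, and Umod was among the former (difference -1.45, adjusted p = 0.0272). On the slide that WT replicates 2 and 4 shared with the op/op arrays, Slc34a1 was at 4.70 and 5.36 in WT and 2.86 to 3.66 in op/op cells, and Aqp2 at 0.72 and 0.34 against 1.39 to 2.08.

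The proximal tubule programme depends on HNF1 factors, whose binding motif has GTTAATNA as one arm, and HNF4A, the product of a listed gene, is another regulator of it. This motif was searched for on both strands in the same promoter windows. Of the 22 listed genes 18 had an entry and 4 held it (Acsm2, Pck1, G6pc and Hnf4a), against 2.98% of 27025 genes. G6pc was higher than in marrow cells by 1.63. Pck1 was higher by 5.77, or by 3.31 at its bound, and was measured on 1 array of each culture. Acsm2 and Hnf4a were not well above background on any marrow array. Acsm2 was at least 2.24-fold higher than in either culture, and the op/op mean of Hnf4a, -2.72, lies under the floor, so no fold is given. The windows hold up to 30 bases on each side of the match. The match is in capitals and may read as its reverse complement. The windows are at chr7:119554142-119554209, chr2:173152849-173152916, chr11:101367466-101367532 and chr2:163547042-163547109, all on the plus strand. They are shown to let the matches be compared.
Acsm2 promoter: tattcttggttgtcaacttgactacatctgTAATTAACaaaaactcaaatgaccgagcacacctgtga
Pck1 promoter: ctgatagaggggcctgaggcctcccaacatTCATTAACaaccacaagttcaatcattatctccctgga
G6pc promoter: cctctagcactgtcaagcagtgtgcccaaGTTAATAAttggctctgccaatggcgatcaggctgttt
Hnf4a promoter: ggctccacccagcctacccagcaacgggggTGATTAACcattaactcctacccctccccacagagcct

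Endothelial genes were another group of kidney genes far above marrow cells. Of 16 tested against marrow, 15 were higher and 1 lower (median 4.33, 2.85 at the bounds), and of the 8 measured on all 9 arrays 7 were higher, with a median of 2.04. Egfl7, a secreted endothelial factor, was at 2.85, 3.47 and 3.80 in op/op cells against -3.44 to -1.91 (difference 6.21, SE 0.27, adjusted p = 2.28e-08). Tie1, an endothelial receptor kinase, was at 0.30 to 1.18 and at least 9.67-fold higher than in either culture. Pecam1 and Kdr, a junction protein and a VEGF receptor, were higher by 2.76 and 1.32. Emcn, of capillary and venous endothelium, was higher than in M1 by 4.77, and 1 M2 array measured it. The member that was lower was Vwf, at -1.07 to -0.97 against M2 at 1.65 to 1.80, and its difference from M1 was 0.53. At their bounds, 9 of the 16 genes exceeded 2.62. Against WT, 1 gene of 16 was higher and 1 lower, with a median of 0.22.

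Fibroblast and mural cell genes had no common direction. Of 14 tested, 9 were lower and 5 higher (median -1.71, -0.39 at the bounds). Col1a1, encoding a chain of type I collagen, was at -1.99, -2.98 and -2.73 in op/op cells and at 3.31 to 4.48 in the marrow cultures, an 84.6-fold difference. Col1a2 and Col3a1 differed by -5.67 and -4.14. Of the smooth muscle genes, Acta2 and Tagln differed by -4.52 and -2.51, whereas Myh11 was higher by 1.06. Ren1, renin of the juxtaglomerular cells, was at 1.55 to 2.1 against -3.32 to -2.95, and Rgs5, of pericytes, was at least 7.11-fold higher than in either culture. Pdgfrb and Cspg4 were higher by 1.45 and 1.83, within the olfactory receptor range.

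**Figure D4:**
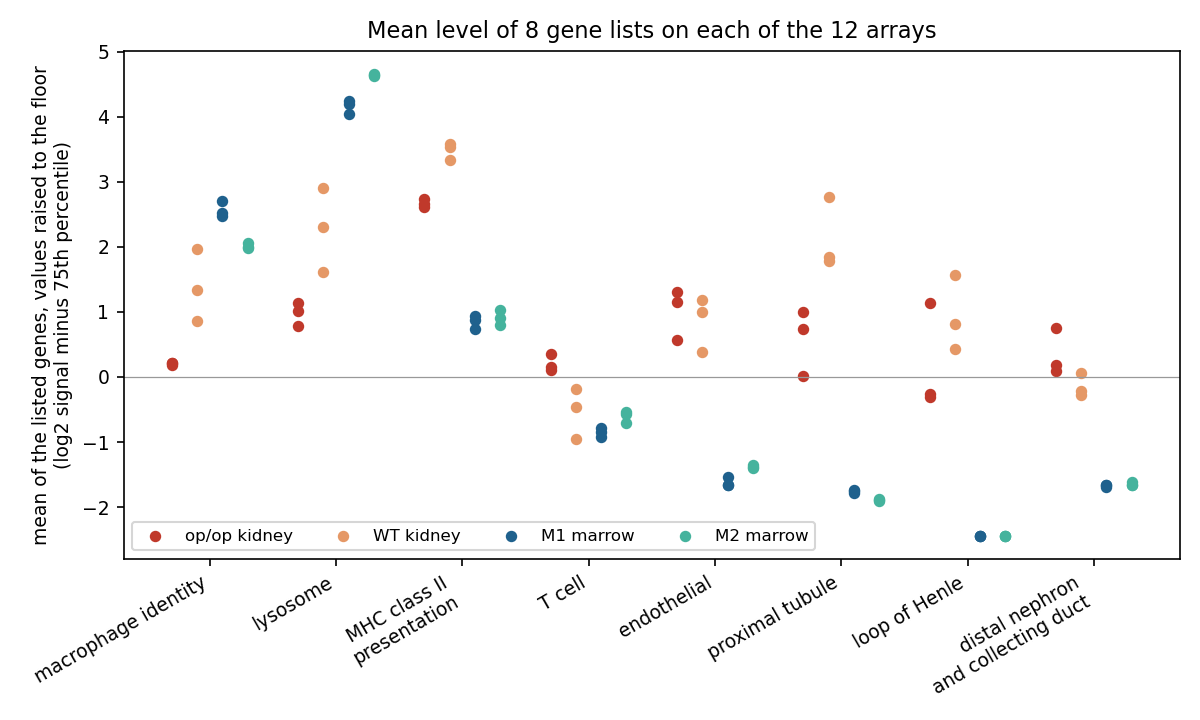
Mean level (log2 signal minus the array's 75th percentile, vertical axis) of the genes of 8 lists on each of the 12 arrays, 1 point per array, coloured by group, with values under the floor of -2.44 raised to it. The op/op arrays lie lowest for macrophage identity and lysosome genes and far above the marrow arrays for kidney cell lists, and replicate 2 stands apart in the loop of Henle list (1.14).

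Lymphocyte genes were higher by amounts that mostly lay within the olfactory receptor range. Of 17 T cell genes tested of 22 listed, 14 were higher and 2 lower (median 1.94, 1.65 at the bounds), of 11 NK and cytotoxic genes 8 were higher and 2 lower (1.19, 0.88 at the bounds), and of 12 B cell genes 8 were higher and 2 lower (1.11, 1.09 at the bounds). Cd3e, a chain of the T cell receptor complex, was at 3.04, 2.69 and 2.59 in op/op cells and at 0.27 to 0.69 in marrow cells (difference 2.21, SE 0.17). Cd4 was higher by 2.16, and by 0.76 on its other probe. Prf1 and Gzma, effectors of cytotoxic cells, were higher by 2.06 and 3.12. Il7r, the interleukin-7 receptor, was not well above background in op/op cells and was at least 9.92-fold lower than in M1 and at least 32.2-fold lower than in M2. At their bounds, none of the T cell genes, Gzma alone among the NK genes and Cd79a alone among the B cell genes exceeded 2.62. The other probe of Cd79a differed by 1.19.

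Against WT kidney, 6 of 13 B cell genes were higher and 3 lower (median 0.75), where 30.9% of all genes tested were higher and 28.5% lower. Bank1, not well above background in op/op cells, and Blnk had lower means there, -4.80 and -1.29, than in WT cells, -3.03 and -0.30. A pair of genes with higher levels follows. Cd79a, a chain of the B cell receptor, was at 0.86 to 1.59 in op/op cells, -3.46 to -2.44 in marrow cells and -0.32 to 0.29 in WT cells. Ms4a1, the gene of CD20, was at -0.75 to -0.33, and it was higher than in WT by 1.76 (adjusted p = 0.00148). Of 18 T cell genes 11 were higher in op/op than in WT and 1 lower (median 0.91), while olfactory receptors had a median of 0.80 in that comparison. Of 4 erythroid genes tested of 10 listed, 3 were higher and none lower (median 1.60), and 5 of the list were above background on no op/op array. Hba-a1, a haemoglobin gene, was at 3.23, 4.13 and 3.93 against -1.08 to -0.63, a 24.1-fold difference. It did not differ from WT beyond the threshold (-0.34, adjusted p = 0.214). Slc4a1 and Hemgn were higher than in marrow cells by 2.23 and 0.97, and Alas2 differed by 0.10. Of 5 plasma cell genes 4 were higher and 1 lower (median 1.47, 1.03 at the bounds). Of 7 platelet genes 4 were higher and 2 lower. Pf4, made by megakaryocytes and by macrophages, was not well above background in op/op cells and was at least 359-fold lower than in M1 and at least 207-fold lower than in M2.

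M1 and M2 marker genes were mostly below the culture that they are named for. Of 18 M1 markers tested against M1, 16 were lower in op/op cells and 1 higher (median -3.16), where 81.7% of all genes were called, 35.5% as lower and 46.2% as higher. Against M2, 11 of 15 were higher and 4 lower (median 1.58), where 83.5% of all genes were called, 47.1% as higher and 36.4% as lower. Of 17 M2 markers tested against M2, 11 were lower and 3 higher (median -1.91), and against M1 9 of 15 were lower and 3 higher (-0.88, -0.28 at the bounds). Genes enter such a list because the culture it is named for expresses them, so a fall against that culture is partly built into the list.

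Il1b, the interleukin-1 beta gene, was high in op/op cells at 4.20, 4.48 and 4.54, between M1 at 5.96 to 6.15 and M2 at -2.21 to -1.66. Tnf also lay between, at -0.36 to -0.05 against 3.05 to 3.30 in M1 and -1.93 to -1.69 in M2. Its difference from the mean of the cultures was -0.90 (SE 0.39, adjusted p = 0.0465) and was lost in 15 of 24 alternative fits. Nos2, encoding the inducible nitric oxide synthase, was below both, at 0.83 to 1.05 against 3.49 to 4.76 and 1.82 to 1.93. Il6 was not well above background in op/op cells, where it was at least 46.6-fold lower than in M1 and at least 1.21-fold lower than in M2. Cxcl10 was measured on 2 op/op arrays, all M1 arrays and no M2 array; it differed by -7.54 from M1 and was not tested against M2.

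Arg1, arginase of M2 cells, was not well above background in op/op cells, at least 58.8-fold lower than in M2 and at least 3.34-fold lower than in M1. Chil3 was at 0.34 to 1.24 against 3.07 to 3.17 in M1 and 5.92 to 6.36 in M2. Retnla was well above background on 1 op/op array, at levels of -3.39 to -2.24, against 5.71 to 5.90 in M2 and -5.61 to -5.06 in M1. The Chil3 difference from M2 was -5.29, and that of Retnla was -8.72, or -8.18 at its bound.

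**Figure D5:**
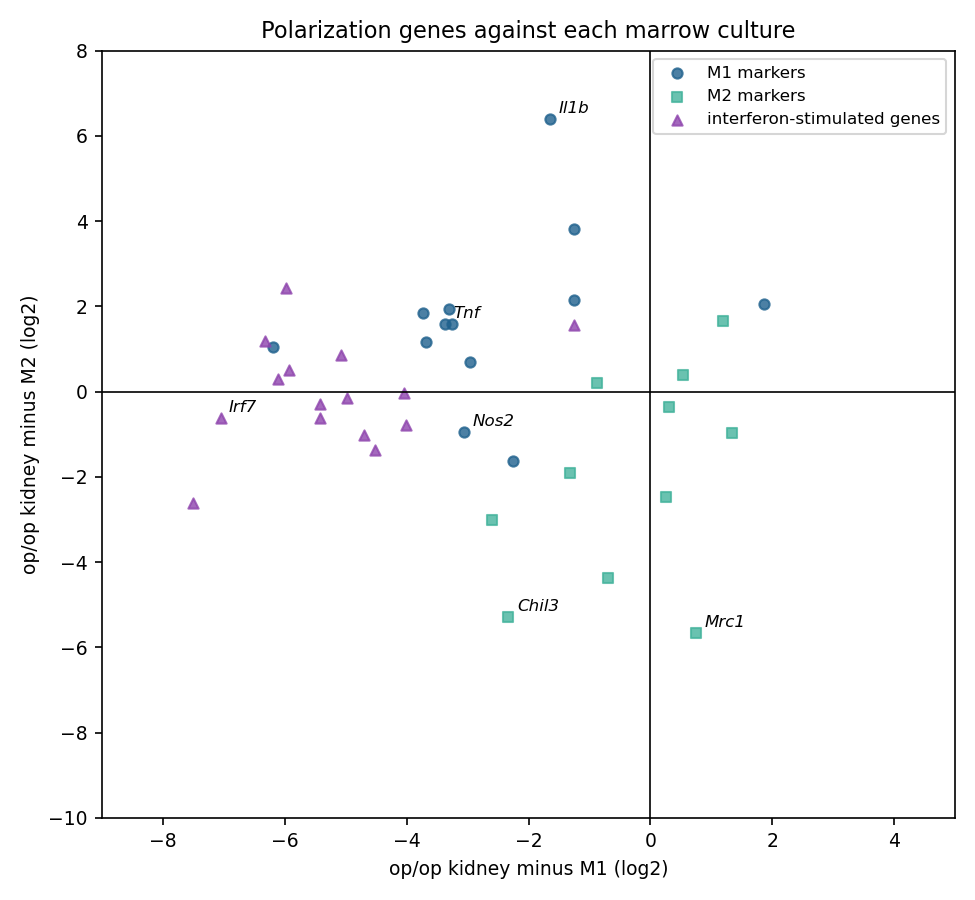
Difference of the op/op kidney fraction from M1 (horizontal axis, log2) and from M2 (vertical axis, log2) for M1 markers, M2 markers and interferon-stimulated genes well above background on all 9 arrays, 1 point per gene. Il1b and Tnf lie between the cultures (negative against M1 and positive against M2), Nos2, Chil3 and Irf7 lie below both, and Mrc1 lies far below M2 and near M1.

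Interferon-stimulated and chemokine genes differed by culture. All 19 interferon-stimulated genes tested were lower than in M1 (median -5.42, -5.08 at the bounds), while against M2 4 were higher and 5 lower of 15 (median -0.16). Irf7, a factor of the interferon response, was at -2.16 to -1.53 in op/op cells, 5.25 to 5.40 in M1 and -1.37 to -0.88 in M2. Chemokine ligands were lower in 20 of 23 against M1 (median -3.31) and in 9 of 20 against M2, with 8 higher (-0.14). Ccl7, a ligand of CCR2, was lower than in both, at -1.99 to -0.99 against 5.92 to 6.11 and 4.61 to 4.68. Cxcl13, a B cell attractant, was at -2.90 to -1.48 and at least 1.35-fold higher than in either culture.

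Immediate early genes, which cells switch on within minutes of a stimulus, were higher in the op/op fraction. Of 13 tested, 8 were higher and 2 lower (median 2.34), and of the 12 measured on all 9 arrays 7 were higher. Fosb was at 5.55, 6.16 and 5.95 in op/op cells, 0.45 to 0.72 in M1 and 3.24 to 3.71 in M2, and was above the olfactory receptor range. Jun, Nr4a1 and Egr3 were higher by 2.44, 3.14 and 2.34. The list median and the rises of Jun and Egr3 lie within the olfactory receptor range. At their bounds, 3 of the 13 genes exceeded 2.62, Fosb and Nr4a1 among them, against 3.3% of all genes tested. Against WT kidney cells, sorted in the same way, 10 of the 13 genes were lower and none higher (median -0.86).

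Genes of glycolysis were lower in 13 of 14, with none higher and a median of -2.87. Pgk1 and Hk2 were at 1.16 to 2.17 and -2.37 to -1.96 in op/op cells and differed by -4.15 and -4.11. Ldha, which makes lactate, was at 3.65 to 3.91 against 6.49 to 6.81 (7.45-fold). Of 17 cell cycle genes 12 were lower and 5 higher (median -1.07, -0.73 at the bounds). Neither DNA synthesis nor mitosis genes moved as one. Of the former, Pcna and Rrm2 differed by -2.95 and -2.84 and Tyms by 1.77. Of the latter, Aurka and Birc5 differed by -1.76 and -1.60, and Plk1 and Top2a by 1.72 and 1.60. The rises named lie within the olfactory receptor range. Mki67 was at 0.57 to 1.22, close to M1 (difference -0.04) and below M2 (-1.47).

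Genes linked to tubular injury and to stone matrix had no common direction, with 4 higher and 9 lower of 14 (median -1.76, -0.77 at the bounds). Havcr1, the injury marker KIM-1 of proximal tubule cells, was at 0.06, -0.68 and -0.17 in op/op cells. It was higher than in M1 by 3.49 and at least 4.52-fold higher than in M2, where no array measured it. The other probe of Havcr1 differed from the marrow mean by 0.92 and was not called. Clu, the clusterin gene, was higher by 5.60 and the epithelial keratin Krt8 was at least 3.38-fold higher than in either culture. Spp1, encoding osteopontin, a protein of stone matrix that macrophages and tubules both make, was at -1.38, 0.00 and -0.04 in op/op cells and at 2.66 to 2.83 in marrow cells (difference -3.21, SE 0.44). Fn1, fibronectin, differed by -4.63. Havcr1, Clu and Krt8 did not differ from WT kidney beyond the threshold, whereas Spp1 and Fn1 were lower than in WT by differences of -1.73 and -2.30.

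The largest differences among genes measured on all 9 arrays repeated these groups. Above marrow stood the tubule genes Fxyd2, Klk1 (6.72), Slc34a1 and Miox (5.45), the endothelial gene Egfl7 and the GTPase genes Gimap4 (6.05) and Gimap6 (5.17) of lymphocytes and endothelium. Below marrow stood Ccl7 (-6.76), Col1a1 (-6.40), the interferon-inducible Ifi202b (-6.23), the activin gene Inhba (-6.17), Cd36 (-6.00), Thbs1 (-5.98), Ms4a7 (-5.84) and the complement receptor gene C3ar1 (-5.58). Among genes that no op/op array measured above background, Cd5l, a secreted macrophage protein, was at least 20.4-fold lower than in M1 and at least 31.9-fold lower than in M2. The fit pools the spread of 4 groups, with median SDs of 0.129 (M2), 0.157 (M1), 0.256 (op/op) and 0.377 (WT kidney). The adjusted p-values of these differences therefore do not rest on the spread of the compared arrays alone. With only those arrays in the fit, 23672 genes were called, against 22948.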

How the data were processed

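RNA of 12 samples, 3 in each of 4 groups, was amplified (Ovation PicoSL WTA V2), labelled with Cy3 and hybridized, per the labels. The deposited spot intensity values, already corrected for background, came from Agilent Feature Extraction 10.7.3.1, per the file headers. A deposited table of log2 values matched the scanner signals less each array's 75th percentile when checked (r = 1.0), and served as an alternative. Probe coordinates in the files are mm9.

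Spots of a probe were averaged, log2 was taken and each array's 75th percentile was subtracted. After 30 probes with outlier spots were left out, 55651 probes remained, and the brightest stood for each gene. A gene was tested where, by the scanner software, all arrays of 1 or more compared groups were well above background. Differences were fitted with limma 3.58.1 (lmFit, eBayes, R 4.3.3) over all 4 groups without covariates, with M1 and M2 weighted equally, and adjusted by Benjamini and Hochberg (called below 0.05). A fold against a group where a probe was above background on no array is a lower bound: the brighter group's mean against a floor of -2.44, the highest of the arrays' 10th percentiles of signals well above background, or the dim signal where higher. List medians at the bounds were added after the data were seen. On simulated data for the op/op against bone marrow comparison (27260 genes) the test recovered 54% of 100 genes changed 2-fold and 93% of 100 changed 4-fold, with 8 false calls. The simulation gave a gene the same spread in all groups and changed few genes. It therefore does not test the effect of the unequal spread of the real groups. The number of arrays limits the precision.

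Named genes were the 12 highest and 12 lowest genes measured on all 9 arrays, the 8 largest bounds each way, up to 4 members of each of 34 lists taken by smallest p, and a fixed marker set. Other genes named, such as Lamp1, Ctsd, Ctsl, Ctss, Egf, Rgs5, Ren1, Elane, Retnlg, Flt3l, Klf4, Irf7, Cxcl13, Tagln, Myh11, Pck1, G6pc, Hnf4a, Acsm2 and H2-D1, were chosen after their values were seen. The members, lists and rule were chosen with earlier results of these data known. The replicate numbers 2 and 4 recur in op/op and marrow groups, but same-numbered samples did not deviate together (correlations -0.052 to 0.156). Alternatives covered background correction, normalization, filter, probe choice, weights, block and leaving out arrays. Tables and plots used pandas 2.3.3 and matplotlib 3.10.9 under Python 3.11.15.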

Additional observations from a re-analysis of the deposited data

Results flagged for a closer look

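Itgax and Tnf are listed because the op/op and the WT kidney samples lay on opposite sides of the marrow mean, both differences were called by limma, and the op/op minus WT difference was called too. Itgax, the CD11c gene, differed from the marrow mean by -0.81 in op/op and by 0.80 in WT cells, and op/op minus WT was -1.61 (adjusted p = 0.000403). Tnf differed by -0.90 in op/op and by 1.11 in WT cells, and op/op minus WT was -2.01 (adjusted p = 0.00399). The Tnf call of op/op cells against marrow (adjusted p = 0.0465) was lost in 15 of 24 alternative fits, so that its place on the lower side is not settled. The Itgax value bears on the sort itself, and the amount of CD11c protein was not measured.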

How the results depend on the processing

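In op/op cells against the marrow mean the count of called genes was 22948 and ranged from 17749 (genes measured on all 12 arrays) to 33519 (every probe on its own). It was 22402 under quantile normalization, 22622 under cyclic loess, 23440 with normexp and 22935 with the deposited values. Leaving out 1 array gave 21966 to 22548, and for M1, M2 and WT as the other side 20992 to 21800, 20589 to 21161 and 11698 to 17415. With the replicate number as a block, which does not pair these samples, the counts were 22141 (marrow), 21460 (M1), 20834 (M2) and 15319 (WT) and no count moved by over 1.5 times. The count against WT fell from 16077 to 9397 when only the arrays of these groups entered the fit. The median of all genes was 0.36, 0.06 under quantile normalization and 0.11 under loess, and single genes shifted by more. Adgre1 went from -4.86 to -4.36 under loess. Acsm2, dim on the marrow arrays, went from 5.29 to 4.58 under loess and to 2.23 with normexp.

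Among 142 of the genes named, 123 kept their direction and side of the threshold in every fit run. On the mean of probes Csf1r turned to -1.61 and Itgam to -0.66. Il34, near 0, turned to 0.16 with array weights, and ran from -0.37 to 0.19 over the fits without 1 array (0.01 without M1 replicate 4, 0.19 and 0.02 without op/op replicates 1 and 2). The monocyte median turned to -0.14 on every probe, that of plasmacytoid dendritic cell genes to -0.06 on genes measured on all 12 arrays, and that of colony-stimulating factor genes to -0.90 (every probe), -0.48 (mean of probes), -0.17 (quantile) and, over the fits without 1 array, -0.09 (without op/op replicate 4) to 0.13. The cause was not tested. Slide and tissue cannot be told apart, and signals near background limit the kidney and lymphoid genes on the marrow side.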

Other observations

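A set of genes stood apart on the op/op arrays from all other 9 arrays, WT kidney included. Over the 28248 genes measured in at least 1 group, 142 were higher and 261 lower on each op/op array than on any other array by more than 1 on the log2 scale. Pctp, a phosphatidylcholine transfer protein, was not well above background in op/op cells and was at -1.50 to -0.81 in WT cells. H2-D1, a class I histocompatibility gene carried by almost all cells, was at 1.26, 1.80 and 1.35 in op/op cells, 6.07, 6.34 and 4.37 in WT cells, and at means of 7.40 in M1 and 6.29 in M2. Alleles of this gene differ between strains, the MHC haplotype of each sample is not given, and an allele difference at the probe was not tested. Ifi202b was at -0.84 to -0.38 against 2.0 to 3.72 in WT cells, and Wfdc17 at -2.52 to -2.05 against 0.13 to 1.82. The lysosomal proteases Lgmn and Ctsc were at 1.44 to 1.56 and 0.21 to 0.35, against 3.44 to 4.48 and 2.19 to 3.87 in WT cells.

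Among genes that were higher, Frzb, a secreted Wnt antagonist, was at -2.18, -0.91 and -0.55 in op/op cells and not well above background in WT or marrow cells, and Trim40 was at -1.82 to -0.91 against -4.55 to -3.54 in WT cells, where 2 arrays measured it. These genes were chosen for standing apart, so the values are a description.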
